A study of Mus musculus with 27 samples.

Results

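Interferon-stimulated genes are the antiviral and antibacterial effectors, sensors and transcription factors that cells switch on when an interferon binds its receptor. A list of 40 such genes was followed in liver, brain and bone marrow of mice with a gene-trap allele of Mysm1. It held 29 genes best known as targets of type I interferon (the IFIT, OAS, Mx, RIG-I-like and ISG15 genes, their transcription factors and other effectors) and 11 guanylate-binding proteins (GBPs) and immunity-related GTPases (IRGs), best known as targets of interferon gamma. For each gene the probe with the highest mean signal in a tissue was taken, provided that its detection p-value was under 0.05 on at least 3 of the tissue's 9 arrays. Of the 40 genes, 39 had a probe (Ifi44 had none under its symbol here), 30 were measured in at least 1 tissue and 23 in all 3. Liver gave 28 of 11745 measured features (21 type I, 7 GBP and IRG), brain 23 of 14423 (17 and 6) and bone marrow 29 of 11507 (21 and 8). Ifit1, Oas1a, Mx1, Gbp4, Gbp6, Iigp1, Ifih1, Parp9 and Xaf1 had a probe but passed in no tissue's own filter. Oas3 and Tgtp1 were further missing in liver, Rtp4 in marrow, and Oasl1, Oas3, Mx2, Irf7, Tgtp1, Ifi47 and Rtp4 in brain.

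Total RNA of 27 samples was hybridised to Illumina BeadChips, 3 arrays in each of 9 groups: liver, brain and bone marrow of Mysm1tma1/tm1a homozygous, Mysm1+/tm1a heterozygous and wild-type mice. All groups shared the C57BL/6 background; the sources used here give neither age nor sex, and no label ties a tissue to an animal, so p-values measure the spread between these arrays, which may be technical. The tm1a allele is carried in every cell, so no cell type is singled out by the design. Mysm1 encodes a histone H2A deubiquitinase that mice need for B cell development. Levels below are log2 intensities, differences are homozygous minus wild type on the log2 scale unless said otherwise, ± is the standard error of the limma fit, and "called" means a limma p-value adjusted over all features of the tissue below 0.05.

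Mysm1 itself was read first as a check of the labels. In liver it stood at 5.20, 4.49 and 4.72 on the homozygous arrays, 6.48, 6.64 and 6.54 on the heterozygous arrays and 7.57, 7.59 and 7.29 on the wild-type arrays, and brain was likewise ordered (6.37 to 6.47 homozygous, 7.53 to 7.78 heterozygous, 8.28 to 8.43 wild type). In marrow the arrays labelled homozygous read 6.48, 4.88 and 6.95, the heterozygous arrays 6.08 to 6.35 and the wild-type arrays 6.18 to 6.40. Of the marrow arrays labelled homozygous, only replicate 2 was below the wild-type arrays, so their genotype is written as labelled. That replicate also stood apart in the 1 hepatocyte marker measured in marrow, whose linear level was 37.35, 1051 and 26.53 on the arrays labelled homozygous, 27.55 to 42.74 in heterozygous and 20.98 to 27.19 in wild-type marrow. The share of probes detected was 32.7 to 36.2% in liver, 43.3 to 44.4% in brain and 20.0 to 35.4% in marrow, and arrays of 1 group correlated at 0.984 or more in liver and 0.986 or more in brain, but at 0.802 to 0.918 among the marrow arrays labelled homozygous. As for the labelled tissues, a probe of Stmn2, a neuronal gene, was detected on 9 of 9 brain arrays and on 0 elsewhere, and Ngp, a neutrophil granule gene, on 9 of 9 marrow, 1 of 9 liver and 2 of 9 brain arrays. The hepatocyte genes Ttr and Apoa1 were detected on 9 of 9 liver arrays but also on 9 of 9 brain arrays, the probe of Alb on 1 of 9 liver arrays, and both probes of Snap25 on 0 of 9 brain arrays. Homozygous and wild-type arrays lay on different BeadChips in every tissue, so BeadChip and genotype cannot be told apart in that comparison. Heterozygous and wild-type arrays shared a BeadChip in liver and in marrow, and homozygous and heterozygous arrays shared 1 in brain. The same limit holds for homozygous against heterozygous arrays in liver and in marrow and for heterozygous against wild-type brains, which lay on different BeadChips.

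Type I interferons bind a receptor whose kinases lead to the assembly of ISGF3, a complex that holds STAT2 and IRF9 and binds the interferon-stimulated response element (ISRE). Interferon gamma acts through a receptor of its own and a second promoter element, the gamma-activated site (GAS). Many of these genes have a low level in healthy tissue even without infection, and Usp18, Irf7 and the OAS genes feed back on the pathway. Liver holds Kupffer cells and marrow holds B cells, myeloid cells and plasmacytoid dendritic cells, all of which answer interferons strongly.

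The promoters of 4 members with small p-values in liver are shown because the list was defined by its response to interferon and these letters show where the textbook elements lie. They are RefSeq windows (GRCm38.p6), plus strand, of 300 bases that run from 250 bases before to 50 after the start. Ifit3 is at chr19:34583279-34583578, Gbp2 at chr3:142620413-142620712, Irgm2 at chr11:58214727-58215026 and Oasl1 at chr5:114922990-114923289. Capitals mark the ISRE core (GAAA, any 2 bases, GAAA) and the GAS letters TTCNNNGAA, searched on both strands.
Ifit3: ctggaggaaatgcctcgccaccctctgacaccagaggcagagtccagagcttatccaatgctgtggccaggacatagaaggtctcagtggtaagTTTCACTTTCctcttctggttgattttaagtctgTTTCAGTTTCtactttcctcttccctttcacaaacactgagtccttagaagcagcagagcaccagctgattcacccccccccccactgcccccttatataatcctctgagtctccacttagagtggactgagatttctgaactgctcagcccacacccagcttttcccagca
Gbp2: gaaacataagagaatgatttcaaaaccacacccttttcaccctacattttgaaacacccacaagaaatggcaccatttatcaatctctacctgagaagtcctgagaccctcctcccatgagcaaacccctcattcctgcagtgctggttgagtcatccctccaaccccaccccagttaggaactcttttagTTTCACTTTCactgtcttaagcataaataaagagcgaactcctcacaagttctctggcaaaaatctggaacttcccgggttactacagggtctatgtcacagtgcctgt
Irgm2: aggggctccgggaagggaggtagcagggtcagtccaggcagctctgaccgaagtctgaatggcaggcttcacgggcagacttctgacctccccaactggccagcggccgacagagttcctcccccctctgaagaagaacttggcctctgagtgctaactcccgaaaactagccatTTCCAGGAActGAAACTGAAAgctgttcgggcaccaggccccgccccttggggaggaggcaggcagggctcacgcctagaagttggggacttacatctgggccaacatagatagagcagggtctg
Oasl1: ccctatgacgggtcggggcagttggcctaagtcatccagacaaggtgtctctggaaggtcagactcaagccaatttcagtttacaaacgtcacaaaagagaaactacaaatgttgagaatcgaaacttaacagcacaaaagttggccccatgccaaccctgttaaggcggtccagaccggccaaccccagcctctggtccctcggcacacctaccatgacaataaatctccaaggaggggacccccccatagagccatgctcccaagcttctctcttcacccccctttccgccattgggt
Ifit3, an RNA-binding antiviral protein, has 2 ISRE cores, TTTCACTTTC and TTTCAGTTTC, whose first bases are at -156 and -122 from the start. Gbp2, a GTPase that coats pathogen vacuoles, has 1 (TTTCACTTTC at -59). Irgm2, a GTPase of the same host defence system, has a GAS (TTCCAGGAA at -75) just before its ISRE core (GAAACTGAAA at -64), and in Oasl1 neither string is in the window. Of the 40 members, 27 are in the promoter table, with 31 windows. The ISRE core was in 19 of 31 member windows (61.29%; 12 of 22 for type I and 7 of 9 for GBP and IRG), against 3.44% of all 32851 windows. The GAS letters were in 8 of 31 (25.81%; 4 of 22 and 4 of 9), against 8.3% of all windows, and the 2 motifs overlapped in 1 member window. A match describes the letters only.

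The level in wild-type mice was high in liver and marrow and low in brain. In 1 normalisation of all 27 arrays, which kept 31 members of 17374 features, all 31 were higher in wild-type liver than in wild-type brain and 25 were called, with a median difference of 2.21 (0.02 over all features; 22.2% of all features were called higher). All 31 were also higher in wild-type marrow than in brain, 30 of them called, with a median of 2.39 (0.05 over all features, of which 27.2% were called higher). Detection on at least 3 of the 27 arrays was enough to enter this fit, so some members passed only through the tissues where they are high. Oasl1, Irf7, Ifi47, Oas3 and Tgtp1 were detected on no brain array, and Tgtp1 on no liver array. The counts and medians against brain therefore rest partly on that filter and on background. Parp14, an ADP-ribosyltransferase, averaged 8.86 ± 0.05 in liver, 8.23 ± 0.10 in marrow and 5.16 ± 0.07 in brain (SD, n = 3 each). Rsad2, the antiviral enzyme viperin, averaged 8.89 ± 0.24 in liver, 12.39 ± 0.30 in marrow and 5.51 ± 0.12 in brain. Isg15, a ubiquitin-like modifier, averaged 7.23 ± 0.08 in liver, 10.74 ± 0.23 in marrow and 4.91 ± 0.17 in brain. Irgm2 ran in the order liver, marrow, brain, at 10.48 ± 0.14, 9.02 ± 0.11 and 6.03 ± 0.09, and so did Igtp (also called Irgm3), at 9.88 ± 0.37, 8.82 ± 0.05 and 5.91 ± 0.26. Between liver and marrow 10 members were lower in liver (25% of all features were called lower) and 7 higher (21.8%): Isg15 (-3.51), Rsad2 (-3.50) and Ifi27l2a (-3.31) differed most downwards, Irgm2 (1.47) and Igtp (1.06) most upwards. Wild-type arrays of the 3 tissues lay on different BeadChips, so tissue and BeadChip cannot be told apart there.

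In liver the interferon-stimulated genes were lower in homozygous than in wild-type mice across both classes. Of 28 measured members 23 had a change below 0 (50.3% of all liver features did), the median was -0.43 (0 over all features), and 17 had an unadjusted limma p under 0.05 with a lower level (9.37% of all features). 2 were called, both lower: Ifit3 and Gbp2 (1.42% of all features were called, 0.758% lower and 0.664% higher). The homozygous arrays lay entirely below the wild-type arrays for 16 members (12.1% of all features) and above for 1, Zbp1 (11.5%). In bulk tissue, fewer cells of a type and less RNA per cell cannot be told apart. Averaged over the 21 type I genes, the homozygous livers read 6.92, 7.08 and 6.86, the heterozygous livers 7.35, 7.28 and 7.39 and the wild-type livers 7.36, 7.33 and 7.28. Averaged over the 7 GBP and IRG genes, the homozygous livers read 8.47, 8.67 and 8.50, the heterozygous livers 9.12, 9.05 and 9.25 and the wild-type livers 9.0, 8.97 and 8.81. In both classes the 3 homozygous livers were the 3 lowest arrays.

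**Figure D1:**
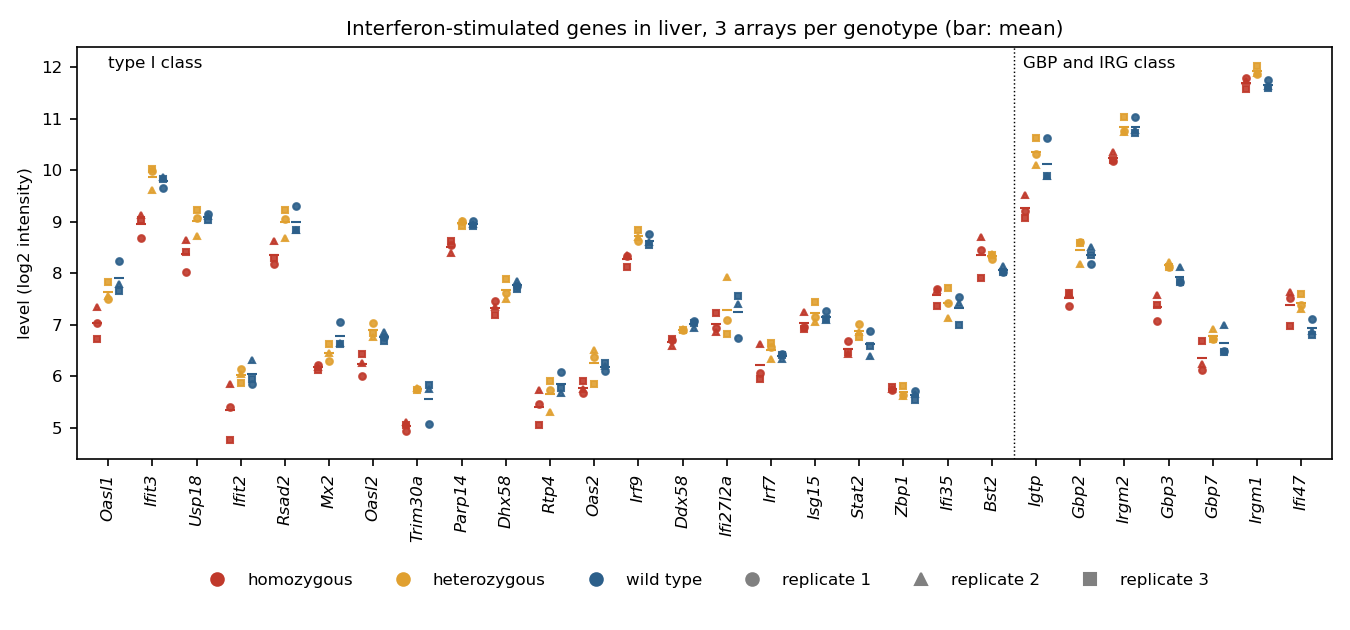
Log2 intensity of the 28 measured genes on each of the 9 liver arrays, homozygous left, heterozygous in the middle and wild type right within each gene; bars are means of 3 arrays and symbols are replicates. Genes are ordered by their change within each class, and the homozygous arrays lie below the wild-type arrays in 16 of them.

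Among the effectors of the type I class, all 5 measured IFIT and OAS genes had a change below 0 and 1 of them, Ifit3, was called. Ifit3 read 8.68, 9.13 and 9.04 in homozygous, 9.98, 9.61 and 10.02 in heterozygous and 9.66, 9.86 and 9.84 in wild-type livers. Every homozygous value was below every other one, and the level was 1.79-fold lower than in wild type (-0.84 ± 0.15, limma adjusted p = 0.0295). A second probe of Ifit3 was at -0.68 ± 0.18, also without overlap. Its relative Ifit2 was at -0.69 ± 0.24 and was not called. Oasl1, an OAS-like protein that in mouse restrains Irf7 translation, read 7.04, 7.34 and 6.73 in homozygous, 7.50, 7.56 and 7.83 in heterozygous and 8.24, 7.79 and 7.66 in wild-type livers. Again the homozygous livers stood below both other groups, which overlapped (-0.86 ± 0.19, limma adjusted p = 0.0597). Oasl2, a second OAS-like protein, read 6.00, 6.26 and 6.43 in homozygous, 7.04, 6.77 and 6.85 in heterozygous and 6.77, 6.86 and 6.68 in wild-type livers (-0.54 ± 0.13, limma adjusted p = 0.0802). Another, dim probe of Oasl2 was at -0.07 ± 0.18, with overlap. Oas2, which makes the oligoadenylates that activate RNase L, was at -0.41 ± 0.16, with no overlap between homozygous and wild type.

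Usp18, the protease that removes ISG15 and damps the type I receptor, read 8.03, 8.65 and 8.42 in homozygous, 9.08, 8.73 and 9.23 in heterozygous and 9.15, 9.12 and 9.03 in wild-type livers. The homozygous livers lay below both other groups (-0.73 ± 0.17, limma adjusted p = 0.0742), whereas Isg15 itself was at -0.12 ± 0.14 with overlapping groups. A second probe of Usp18 was at -0.34 ± 0.27, with overlap between homozygous and wild type. Mx2, a dynamin-like antiviral GTPase, read 6.21, 6.19 and 6.13 in homozygous, 6.30, 6.45 and 6.63 in heterozygous and 7.05, 6.65 and 6.63 in wild-type livers. Heterozygous livers lay between the other groups there (-0.60 ± 0.14, limma adjusted p = 0.0657). Parp14 read 8.55, 8.40 and 8.62 in homozygous, 9.02, 9.01 and 8.92 in heterozygous and 9.02, 8.95 and 8.91 in wild-type livers, a tight pattern with the homozygous livers apart (-0.44 ± 0.10, limma adjusted p = 0.0673).

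None of the 3 measured sensors of foreign nucleic acid was called. Ddx58 (RIG-I) read 6.70, 6.59 and 6.73 in homozygous, 6.90, 6.92 and 6.89 in heterozygous and 7.08, 6.94 and 7.04 in wild-type livers, with no overlap between any pair of groups (-0.35 ± 0.10, limma adjusted p = 0.108). Dhx58 (LGP2) read 7.47, 7.34 and 7.19 in homozygous, 7.62, 7.50 and 7.89 in heterozygous and 7.75, 7.85 and 7.70 in wild-type livers, where again the homozygous livers were lowest (-0.44 ± 0.13, limma adjusted p = 0.121). Zbp1, the sensor of Z-form nucleic acids, had homozygous livers slightly above wild type at 0.13 ± 0.10. Of the transcription factors, Irf9 was at -0.36 ± 0.11 without overlap, and Irf7 (-0.18 ± 0.17) and Stat2 (-0.09 ± 0.14) overlapped wild type. A second probe of Irf9 was at -0.04 ± 0.15. The remaining effectors Rsad2 (-0.64 ± 0.19), Trim30a (-0.51 ± 0.18), Rtp4 (-0.43 ± 0.20) and Ifi27l2a (-0.23 ± 0.28) were below 0, and Ifi35 (0.25 ± 0.18) and Bst2 (0.29 ± 0.18), the membrane tether of budding viruses, above it. None of these was called.

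The GBP and IRG class had a median of -0.59, beside -0.43 for the type I class, and the ranges of both (-0.86 to 0.44 and -0.86 to 0.29) coincided at the low end; the difference between classes was not tested. All 3 GBPs were below 0. Gbp2 read 7.37, 7.62 and 7.61 in homozygous, 8.60, 8.18 and 8.59 in heterozygous and 8.18, 8.51 and 8.35 in wild-type livers. The homozygous livers stood apart from both, 1.76-fold lower than wild type (-0.81 ± 0.15, limma adjusted p = 0.0278). A second, dim probe of Gbp2 was at -0.21 ± 0.20, with overlap between homozygous and wild type. Gbp3, a relative of Gbp2, read 7.07, 7.58 and 7.38 in homozygous, 8.13, 8.22 and 8.13 in heterozygous and 7.84, 8.13 and 7.83 in wild-type livers (-0.59 ± 0.14, limma adjusted p = 0.0806). Its second probe was at -0.79 ± 0.17, without overlap. Gbp7 read 6.13, 6.24 and 6.68 in homozygous, 6.73, 6.91 and 6.73 in heterozygous and 6.49, 7.0 and 6.47 in wild-type livers, so homozygous and wild type overlapped (-0.30 ± 0.18).

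The IRGs, GTPases that disrupt the vacuoles of intracellular pathogens, were split. Igtp read 9.20, 9.52 and 9.08 in homozygous, 10.32, 10.11 and 10.63 in heterozygous and 10.63, 9.88 and 9.89 in wild-type livers (-0.86 ± 0.22, limma adjusted p = 0.0904). Irgm2 read 10.18, 10.36 and 10.20 in homozygous, 10.77, 10.75 and 11.03 in heterozygous and 11.03, 10.78 and 10.72 in wild-type livers (-0.60 ± 0.13, limma adjusted p = 0.052). Both had all 3 homozygous livers lowest. Ifi47 went the other way, at 7.52, 7.64 and 6.98 in homozygous, 7.39, 7.30 and 7.59 in heterozygous and 7.11, 6.88 and 6.81 in wild-type livers (0.44 ± 0.17, limma adjusted p = 0.239), with 1 homozygous liver inside the wild-type range. Irgm1 was flat on its brighter probe (0.04 ± 0.11).

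Heterozygous livers did not share the lower levels. None of the 28 members was called against wild type on the same BeadChip (0% of all features were called); at an unadjusted p under 0.05 stood 1 lower and 2 higher members (3.98% and 3.23% of all features). The median was 0.07, 20 of 28 members were above 0 (50.5% of all features were), and all 7 GBP and IRG genes were (median 0.22). The members with the smallest p were Ifi47 (0.49 ± 0.17, limma adjusted p = 0.583) and Irgm1 (0.26 ± 0.11, limma adjusted p = 0.655). Homozygous minus heterozygous livers gave 25 of 28 members below 0 (50.7% of all features) and a full separation downwards in 19 (10.3%) and upwards in 0 (10.2%). 3 were called, all lower (0.69% of all features were called, 0.341% lower): Gbp2 (-0.92 ± 0.15, limma adjusted p = 0.0217), Ifit3 (-0.92 ± 0.15, limma adjusted p = 0.027) and Gbp3 (-0.81 ± 0.14, limma adjusted p = 0.0365). These comparisons share the homozygous and heterozygous arrays with those above and are not independent of them. Homozygous and heterozygous livers also lay on different BeadChips, so BeadChip and genotype cannot be told apart between them.

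Of 53 listed interferons, receptors, kinases, IRFs, adaptors and negative regulators, 36 were measured in liver and 0 were called by limma in either direction. Their median was 0.01, with 3 lower and 1 higher at an unadjusted p under 0.05 (9.37% and 7.91% of all features). Irf1, the factor that drives GBP genes after interferon gamma, was at -0.39 ± 0.13 and Ptpn6, a phosphatase that damps cytokine receptors, at -0.32 ± 0.11 (limma adjusted p = 0.182 for each). Some markers of blood cells also differed between these livers. Of 8 B cell markers 2 were measured, with a summed linear level of 48.8 to 55.91 in homozygous, 82.45 to 122.8 in heterozygous and 103.2 to 122.7 in wild-type livers; Fcmr was at least 2.18-fold lower in homozygous than in wild type (limma adjusted p = 0.00173) and not detected on any homozygous array. Alas2, an erythroid enzyme, rose by 1.55 ± 0.26 (limma adjusted p = 0.0216). The sums of the 3 measured erythroid markers overlapped, at 3259 to 6594 in homozygous, 2524 to 8266 in heterozygous and 2942 to 4660 in wild-type livers. The 4 measured neutrophil markers were all above 0 (median 0.63), with S100a8 at 1.79 ± 0.39 (limma adjusted p = 0.0597) and S100a9, not detected in wild type, at least 1.75-fold higher (limma adjusted p = 0.0983); neither was called, and neither overlapped between the groups. The sums of the 4 were 486.8 to 752.8 in homozygous, 367.8 to 555.8 in heterozygous and 305.5 to 571.1 in wild-type livers. Of 8 endothelial markers 7 were below 0 and 0 called, with sums of 2107 to 2458 in homozygous, 2297 to 2703 in heterozygous and 2505 to 2715 in wild-type livers. The Kupffer cell and macrophage markers had 0 of 10 called and summed levels of 4827 to 5450 in homozygous, 4112 to 5114 in heterozygous and 4099 to 5420 in wild-type livers. For T and NK cells 4 of 10 were measured, none called, with sums of 125.5 to 211.5 in homozygous, 160 to 179.1 in heterozygous and 143.7 to 175.7 in wild-type livers. The part of these cells in the interferon gene levels was not tested.

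The direction in liver was steadier than the calls. Without any 1 of the homozygous replicates, or without wild-type replicate 2 or 3, no member was called in homozygous against wild-type livers, while 23 or 24 of the 28 members were below 0. Fewer of all 11745 features were called then too: 57, 47 and 122 without homozygous replicates 1, 2 and 3. The number was 49 and 108 without wild-type replicates 2 and 3, beside 167 with all arrays. Without heterozygous replicate 1 the count of members was 1, with Gbp2 alone, beside 106 features. Without heterozygous replicate 3 it was 3, with Irgm2 added, beside 163 features. Without wild-type replicate 1 the called members were Gbp2 and Trim30a, beside 79 features. Ifit3 was not among them, and 22 members were below 0. Of the 3 calls in homozygous against heterozygous livers, 0 were made without homozygous replicate 1 or 3 or heterozygous replicate 1 or 3 and 1 (Gbp3) without homozygous replicate 2, and without wild-type replicate 1 there were 5, with Igtp and Trim30a added. Features called in these settings were 47, 57, 38, 77, 38 and 86, in that order, beside 81 with all arrays. With the replicate number as a block 0 members were called in the fit of all 9 livers, beside 82 features. In the fit of homozygous and wild-type livers alone 2 were (Gbp2 and Ifit3), beside 104 features.

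In brain the same genes stood slightly low and none was called. Of 23 measured members 22 were below 0 (49.3% of all features), with a median of -0.17 (0 over all features). With 1 array left out at a time 18 to 22 of the 23 were below 0. With 75th percentile scaling or array weights 19 were, and with the mean of detected probes all 23. The type I class had 17 of 17 below 0 (median -0.17) and the GBP and IRG class 5 of 6 (median -0.14). These are counts on the probe used, and a second probe of Ifit2 was at 0.08 ± 0.16. Among the type I genes, Oas2 and Trim30a would not have passed the detection filter without their wild-type detections. Limma called 0 members (0.00693% of all features were called, Mysm1 alone), 4 were lower and 0 higher at an unadjusted p under 0.05 (2.72% and 2.53% of all features), and 3 had homozygous arrays entirely below wild type (5.24%). Irgm2 read 6.46, 6.43 and 6.52 in homozygous, 6.87, 6.70 and 6.64 in heterozygous and 6.86, 6.66 and 6.78 in wild-type brains (-0.30 ± 0.09, limma adjusted p = 0.892). Usp18 read 5.40, 5.47 and 5.47 in homozygous, 5.67, 5.74 and 5.68 in heterozygous and 5.54, 5.78 and 5.60 in wild-type brains (-0.20 ± 0.08, limma adjusted p = 0.929). Both had the 3 homozygous brains lowest. Ifit3 read 8.07, 7.94 and 7.99 in homozygous, 8.13, 8.20 and 8.06 in heterozygous and 8.15, 8.28 and 8.09 in wild-type brains, where homozygous overlapped heterozygous and not wild type (-0.17 ± 0.08). Gbp2 read 7.01, 7.21 and 6.98 in homozygous, 7.12, 7.39 and 7.30 in heterozygous and 7.36, 7.39 and 7.20 in wild-type brains (-0.25 ± 0.10), and Parp14 was at -0.28 ± 0.12; in both, homozygous and wild type overlapped.

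The members next by p in brain were Bst2 (-0.36 ± 0.21), Oasl2 (-0.16 ± 0.12), Dhx58 (-0.26 ± 0.19), Trim30a (-0.18 ± 0.15) and Ifit2 (-0.25 ± 0.21), and in the other class Igtp (-0.18 ± 0.18), Gbp3 (-0.10 ± 0.14), Gbp7 (-0.07 ± 0.09) and Irgm1 (0.05 ± 0.10). All of these overlapped between homozygous and wild type. On the BeadChip that homozygous and heterozygous brains shared, 18 of 23 members were below 0 (49.6% of all features), with a median of -0.15 and 0 called (0.00693% of all features were; 2 lower at an unadjusted p under 0.05, 2.88% of all features). Heterozygous against wild-type brains gave a median of -0.04, 14 of 23 below 0 (50.5% of all features) and 0 called (0% of all features were; 1 lower at an unadjusted p under 0.05, 2.99% of all features). Of 37 pathway genes measured in brain 0 were called (1 lower and 2 higher at an unadjusted p under 0.05), and Irf5 (0.30 ± 0.10) and Ptpn2 (0.22 ± 0.09) had the smallest p. The summed level of 5 microglial markers was 778.4 to 1068 in homozygous, 897.2 to 985 in heterozygous and 735.3 to 995.4 in wild-type brains.

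**Figure D2:**
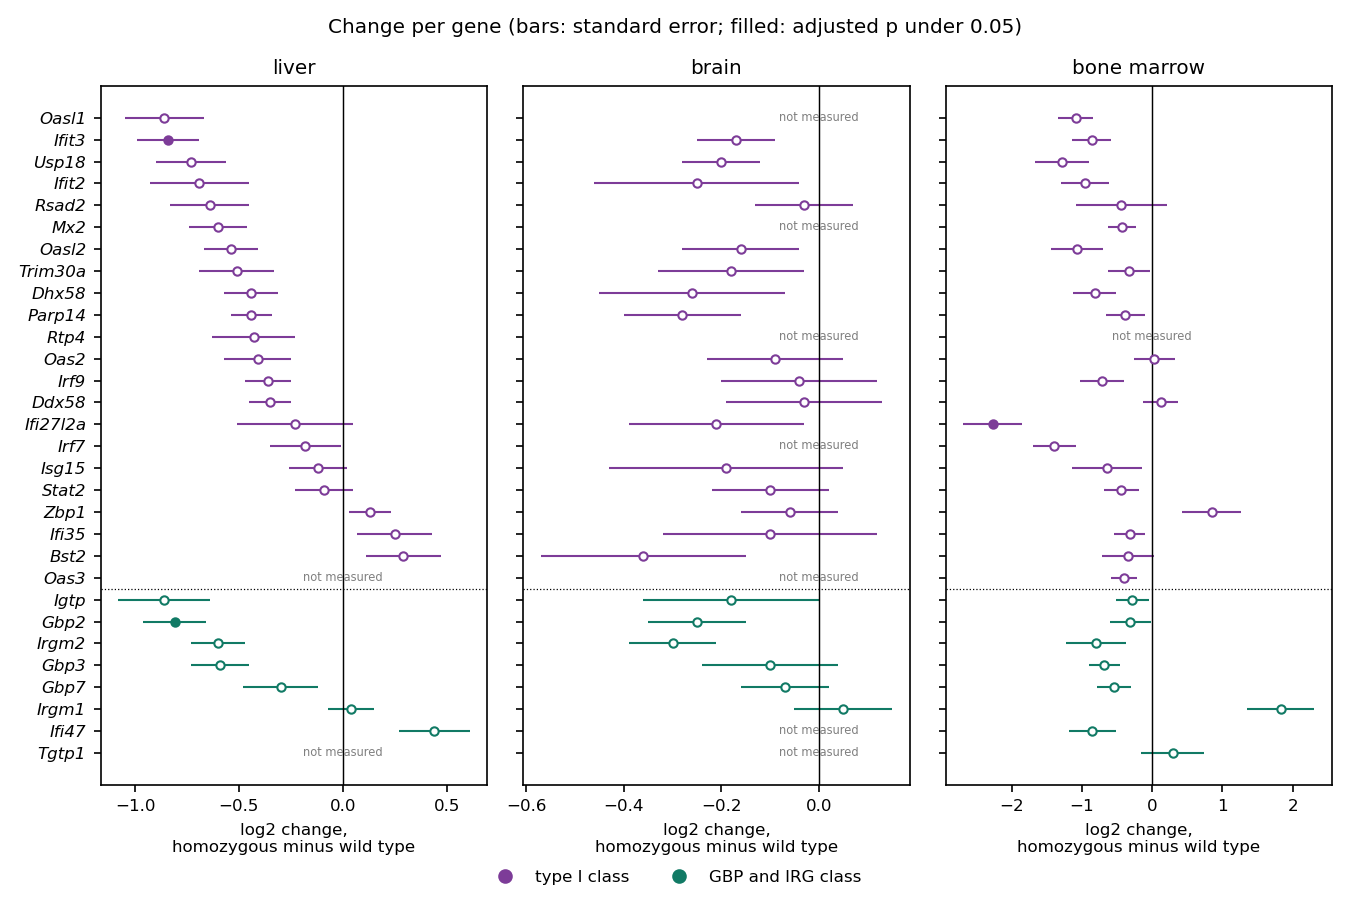
Log2 change, homozygous (as labelled in marrow) minus wild type, with the standard error of the limma fit, for each gene measured in liver, brain and bone marrow; the horizontal scales differ between panels. Filled points are called, Ifit3 and Gbp2 in liver and Ifi27l2a in marrow, and 23 of 28, 22 of 23 and 24 of 29 genes lie left of 0.

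In bone marrow labelled homozygous most members were again below wild type, on a background that had itself shifted. Of 29 measured members 24 were below 0 (59% of all features), with a median of -0.44 (-0.12 over all features). 1 was called, lower (1.1% of all features were called, 0.826% lower and 0.278% higher), and 12 were lower and 1 higher at an unadjusted p under 0.05 (14.7% and 12.4%). The arrays labelled homozygous lay entirely below wild type for 14 members (19.6% of all features) and above for 1 (11.4%). Of the 29 measured members, Mx2 was detected on the wild-type arrays alone. Oas3, Stat2 and Gbp7 would not have passed the detection filter without their wild-type detections, so the filter favoured lower levels in these genes. The called gene was Ifi27l2a, a small interferon-induced membrane protein. It read 7.36, 6.11 and 5.61 on the arrays labelled homozygous, 8.80, 8.24 and 9.11 on the heterozygous arrays and 8.95, 8.66 and 8.30 on the wild-type arrays, with no overlap. The level was 4.83-fold lower than in wild type (-2.27 ± 0.42, limma adjusted p = 0.0367) and also lower than in heterozygous marrow (-2.35 ± 0.42, limma adjusted p = 0.0383).

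**Figure D3:**
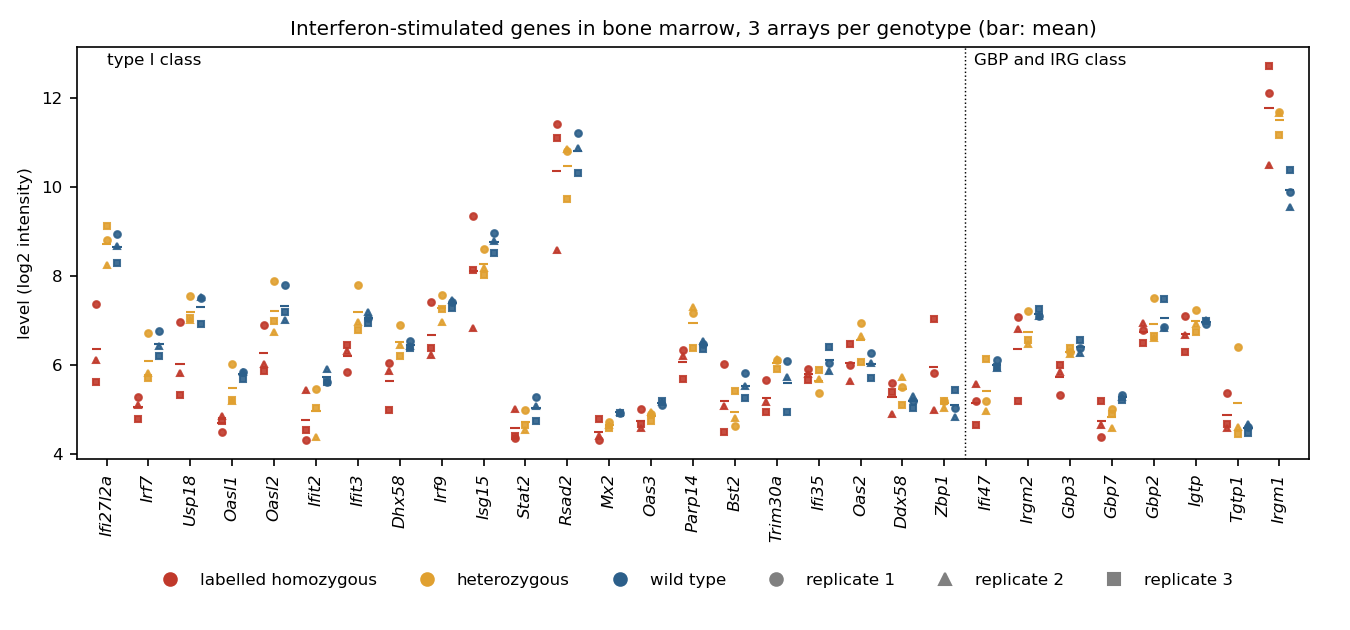
Log2 intensity of the 29 measured genes on each of the 9 marrow arrays, labelled homozygous left, heterozygous in the middle and wild type right within each gene; bars are means of 3 arrays and symbols are replicates. The arrays labelled homozygous spread widely, with replicate 2 far below the other 2 in Rsad2 and Isg15 and all 3 below wild type in Ifi27l2a and Irf7.

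Irf7, the factor that amplifies interferon alpha production, read 5.29, 5.10 and 4.79 on the arrays labelled homozygous, 6.72, 5.82 and 5.70 in heterozygous and 6.76, 6.42 and 6.19 in wild-type marrow (-1.39 ± 0.30, limma adjusted p = 0.0532). Oasl1 read 4.50, 4.85 and 4.75 on the arrays labelled homozygous, 6.03, 5.18 and 5.21 in heterozygous and 5.84, 5.84 and 5.69 in wild-type marrow (-1.09 ± 0.25, limma adjusted p = 0.0652), and was detected on 1 of the 3 arrays labelled homozygous. Both genes were below both other groups. Usp18 read 6.96, 5.81 and 5.33 on the arrays labelled homozygous, 7.54, 7.01 and 7.05 in heterozygous and 7.51, 7.52 and 6.92 in wild-type marrow, where replicate 1 overlapped wild type (-1.28 ± 0.38, limma adjusted p = 0.09). Ifit3 read 5.84, 6.31 and 6.45 on the arrays labelled homozygous, 7.79, 6.96 and 6.79 in heterozygous and 7.06, 7.18 and 6.94 in wild-type marrow (-0.86 ± 0.28, limma adjusted p = 0.103). Oasl2 (-1.07 ± 0.37), Ifit2 (-0.95 ± 0.34) and Dhx58 (-0.82 ± 0.30) were the next by p and also lay below wild type on every array labelled homozygous.

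In the GBP and IRG class of marrow 6 of 8 members were below 0 (median -0.42), and none was called. Gbp3 read 5.32, 5.85 and 6.00 on the arrays labelled homozygous, 6.28, 6.25 and 6.38 in heterozygous and 6.38, 6.26 and 6.56 in wild-type marrow (-0.68 ± 0.22, limma adjusted p = 0.102). Ifi47 read 5.20, 5.57 and 4.65 on the arrays labelled homozygous, 5.18, 4.96 and 6.13 in heterozygous and 6.10, 5.93 and 5.96 in wild-type marrow (-0.85 ± 0.33, limma adjusted p = 0.134). Both were below wild type without overlap, and Ifi47 overlapped heterozygous marrow. Gbp7, not detected on any array labelled homozygous, was at least 1.25-fold lower (limma adjusted p = 0.183). Irgm2 (-0.80 ± 0.43), Gbp2 (-0.31 ± 0.29), Igtp (-0.28 ± 0.24) and Tgtp1 (0.29 ± 0.45) were not called.

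Irgm1 had the largest upward change of any member in marrow on the probe used here, and its probes disagreed. Probe ILMN_2804037 read 12.10, 10.49 and 12.72 on the arrays labelled homozygous, 11.69, 11.65 and 11.17 in heterozygous and 9.89, 9.55 and 10.37 in wild-type marrow (1.83 ± 0.48, limma adjusted p = 0.0796). Heterozygous marrow, on the same BeadChip as wild type, was 1.56 ± 0.48 above it (limma adjusted p = 0.515). Probe ILMN_1234539 of the same gene read 5.0, 5.65 and 4.68 on the arrays labelled homozygous, 6.11, 5.47 and 6.28 in heterozygous and 6.60, 6.77 and 6.74 in wild-type marrow, so it was lower without overlap (-1.59 ± 0.29, limma adjusted p = 0.0349 over all detected probes). In liver the second probe was at -0.40 ± 0.14 and the brighter one at 0.04 ± 0.11, so the direction of Irgm1 depends on the probe. Of the 13 members with more than 1 measured probe in liver, 11 had all probes below 0 and Irgm1 was the 1 with opposite signs. In marrow 8 of 9 had all probes below 0 and Irgm1 was again the exception. Brain had 5 such members, 3 with all probes below 0 and 2 with opposite signs, Irgm1 and Ifit2.

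**Figure D4:**
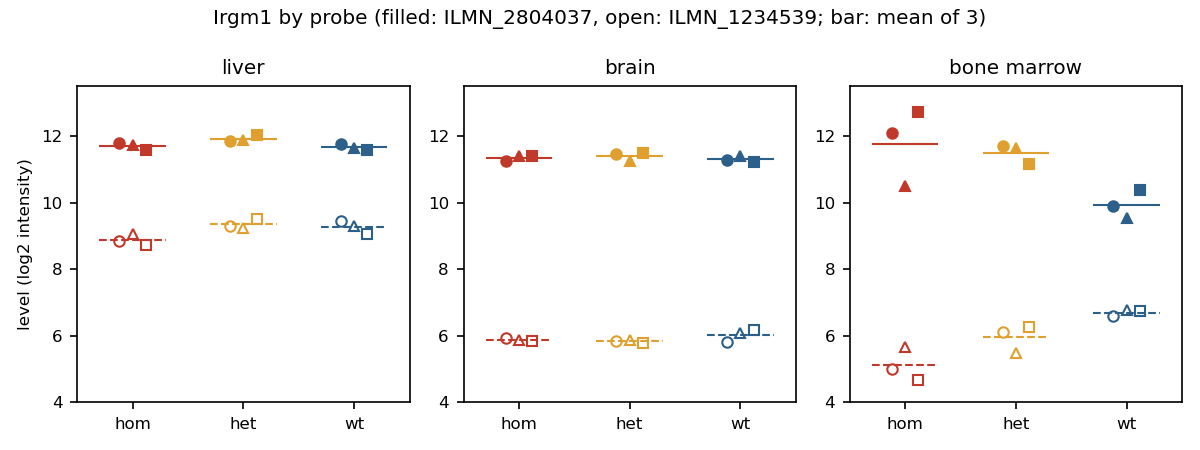
Log2 intensity of both Irgm1 probes on each array of liver, brain and bone marrow, homozygous (as labelled in marrow) left, heterozygous in the middle and wild type right; filled symbols are probe ILMN_2804037, open symbols probe ILMN_1234539, and bars are means of 3 arrays. In marrow the brighter probe is higher (1.83) and the other lower (-1.59) on the arrays labelled homozygous.

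The marrow result leaned on single arrays. Isg15 read 9.35, 6.84 and 8.14 on the arrays labelled homozygous against 8.52 to 8.97 in wild type, and Rsad2 read 11.40, 8.58 and 11.09 against 10.30 to 11.22, with replicate 2 low in both. Without replicate 2 of the arrays labelled homozygous 10 of 29 members were called (8 lower, 2 higher), beside 3610 of all 11507 features, so the members' share was near that of all features. With that replicate alone, an alternative chosen after seeing the data, 4 were called, all lower (Ifi27l2a, Isg15, Rsad2 and Usp18), beside 389 of 11507 features; the lone array is assumed to vary like the other groups. No member was called without labelled-homozygous replicate 3 or heterozygous replicate 2 or 3, beside 101, 47 and 71 of 11507 features. None was called without wild-type replicate 1, 2 or 3, beside 27, 18 and 16 features. Without heterozygous replicate 1 Irf7 was called in place of Ifi27l2a, beside 63 features. All arrays together gave 127 features. Heterozygous against wild-type marrow had 0 members called (0% of all features; 1 lower and 1 higher at an unadjusted p under 0.05, 4.68% and 4.7% of all features) and a median of -0.12. Homozygous as labelled minus heterozygous had 25 of 29 members below 0 (55.2% of all features), 1 of them called (0.669% of all features were called, 0.53% lower) and a median of -0.28 (-0.05 over all features). That call, Ifi27l2a, was lost without labelled-homozygous replicate 3 (107 of 11507 features were called) and without any 1 heterozygous or wild-type replicate. Features called were 26, 22 and 27 without heterozygous and 38, 30 and 41 without wild-type replicates 1, 2 and 3, beside 77 with all arrays. Zbp1 joined Ifi27l2a without labelled-homozygous replicate 2, beside 1585 features.

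Cell markers moved with these marrow arrays. The 5 measured B cell markers summed to 116.8 to 132.3 on the arrays labelled homozygous, 698.1 to 988.7 in heterozygous and 594.3 to 1040 in wild-type marrow, with 4 of 5 called lower. Cd79b fell by 3.50 ± 0.32 (limma adjusted p = 0.00158) and Fcmr was at least 7.91-fold lower (limma adjusted p = 0.00158). Of 5 genes listed as plasmacytoid dendritic cell markers 4 were below 0 and 1, Ly6d, was called (-2.58 ± 0.25, limma adjusted p = 0.00207). The sums of the 5 overlapped, at 156.4 to 489.9 on the arrays labelled homozygous, 485.6 to 566.7 in heterozygous and 414.9 to 501.6 in wild-type marrow. Whether the fall of Ly6d reflects these cells or the B lineage, whose markers fell too, was not tested. Of 33 pathway genes 3 were called, all lower: Irf8 (-1.30 ± 0.20, limma adjusted p = 0.02), a factor of myeloid and B cells, Irf5 (-1.48 ± 0.25, limma adjusted p = 0.0265), which acts below Toll-like receptors, and Irf4, a lymphoid factor, at least 1.75-fold lower (limma adjusted p = 0.0339). Neutrophil markers had 0 of 8 called, all above 0 and 5 without overlap, with sums of 63750 to 86590 on the arrays labelled homozygous, 52540 to 58790 in heterozygous and 48620 to 55040 in wild-type marrow. Endothelial markers had 0 of 7 called, with sums of 520.8 to 554.2 on the arrays labelled homozygous, 336.3 to 355.7 in heterozygous and 319.8 to 396.1 in wild-type marrow. T and NK cell markers had 0 of 6 called, 5 of them below 0, with sums of 406.8 to 820.5 on the arrays labelled homozygous, 434.3 to 674.9 in heterozygous and 558.7 to 731.8 in wild-type marrow. The part of these cells in the interferon gene levels of marrow was not tested.

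**Figure D5:**
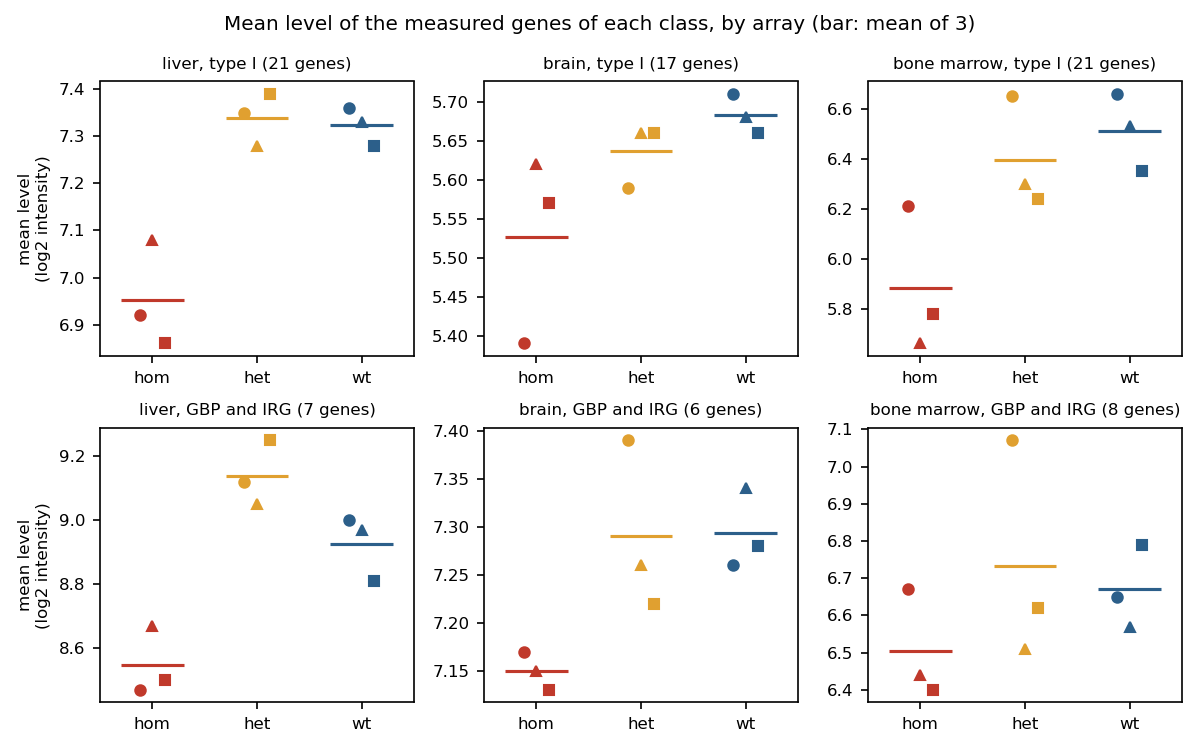
Mean log2 intensity of the measured type I genes (top) and of the GBP and IRG genes (bottom) on each array, homozygous (hom, as labelled in marrow) left, heterozygous (het) in the middle and wild type (wt) right, with bars for means of 3; vertical scales differ between panels. In liver both classes are lowest on the 3 homozygous arrays, 6.86 to 7.08 and 8.47 to 8.67.

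Whether the homozygous effect differed between tissues was tested with interaction contrasts in the fit of all 27 arrays. Liver minus brain gave 0 of 31 members called (0.15% of all features), with a median of -0.28 (-0.01 over all features) and 25 of 31 below 0. Marrow as labelled minus brain gave 6 called, 5 lower (6.45% of all features) and 1 higher (4.99%). Ifi27l2a was at -2.41 ± 0.51 (limma adjusted p = 0.00582), Usp18 at -1.41 ± 0.45 (limma adjusted p = 0.0478) and Irgm1 at 1.27 ± 0.35 (limma adjusted p = 0.0251). The others were Irf7, Oasl1 and Mx2, for which no size is given here: Irf7 and Oasl1 were detected on 0 of 9 brain arrays, and Mx2 on 2 of 9 brain arrays and on 0 of 3 marrow arrays labelled homozygous, so what was compared there is partly background. Liver minus marrow gave 5 called, 4 higher (8.58% of all features) and 1 lower (7.17%): Ifi27l2a at 2.32 ± 0.51, Irf7 at 1.85 ± 0.38, Ifi47 at 1.79 ± 0.52, Oasl1 at 1.30 ± 0.38 and Irgm1 at -1.28 ± 0.35. Of the 3 marrow arrays labelled homozygous, Irf7 and Ifi47 were detected on 2 and Oasl1 on 1. The marrow contrasts rest on labels that Mysm1 did not bear out on 2 arrays. Without labelled-homozygous replicate 2, 13 of 31 members were called in marrow minus brain and 10 in liver minus marrow, beside 5624 and 6345 of 17374 features. With that replicate alone the counts were 11 and 9, beside 1830 and 2227 features; Irgm1 was then lost in both contrasts (0.37 and -0.38, limma adjusted p = 0.429 and 0.37), and Ifi47 (0.95, limma adjusted p = 0.231) and Oasl1 (0.85, limma adjusted p = 0.19) in liver minus marrow.

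Over the 3 tissues together, without a BeadChip term, 28 of 31 members were below 0 in homozygous against wild type, with a median of -0.42. Limma called 0 of these members and 4 of 17374 features, and 19 members and 2866 features had an unadjusted p under 0.05; BeadChip and genotype cannot be told apart in that fit. With BeadChip as a term no homozygous liver or marrow array contributes to the genotype effect, so no effect shared by the tissues could be had that way. Among the 23 members measured in all 3 tissues, 17 were below 0 in each of them. That count takes the marrow arrays as labelled, where 59% of all features were below 0. No such count was made over all features, and homozygous and wild-type arrays lay on different BeadChips in every tissue.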

How the data were processed

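Illumina BeadChip arrays of 27 samples were used, 3 in each of 9 groups. The deposited scanner table gives, per probe and array, a mean bead intensity that was not normalised and a detection p-value against negative controls (in steps of 1 in 936), per the file headers. The submitters' processing notes name BeadStudio and limma, without versions. The authors' deposited processed values, also an intensity, were within 2.29% of a quantile normalisation of the scanner values and served as an alternative; each of the 27 columns matched its own scanner column best.

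From the scanner values, neqc (limma 3.58.1, R 4.3.3) gave background-corrected, quantile-normalised log2 intensities with an offset of 16, separately for the 9 arrays of each tissue, from detection p-values. Of 45281 probes 34885 have a single gene symbol in GEO's platform annotation. Features were detected at p under 0.05 on at least 3 of 9 arrays, with the brightest probe standing for a gene; unnamed probes stayed as features of their own. The 3 genotypes of a tissue entered 1 fit (lmFit, eBayes), with two-sided p-values adjusted by Benjamini-Hochberg over all features and a threshold of 0.05. Contrasts between tissues came from 1 neqc and fit of all 27 arrays. Where a probe was undetected on every array of a group, a fold is a bound ("at least"), set by the lowest signal of detected probes on those arrays. The number of arrays limits the precision.

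The 40 members, the marker and pathway lists and the tests were chosen with earlier results of these data known. Values were given for called members and, for homozygous against wild type, for up to 8 type I and 6 GBP and IRG members by smallest p; for other contrasts, called members up to 6 or the 2 smallest p; for pathway and marker lists, called genes up to 4 or the 2 smallest p. Irgm1's second probe was described after its values were seen. Same-numbered homozygous and wild-type livers deviated together (correlations 0.112, 0.105 and 0.232 for replicates 1, 2 and 3). In marrow the same pair of groups, as labelled, had 0.01, 0.442 and 0.342. Every other pair of groups held a correlation below 0. No label states a pairing. The fit was tested on simulated data. Promoter letters are RefSeq's (GRCm38.p6). Alternatives were background correction, scaling, filter, probe rule, array weights, the replicate block, 1 fit of all arrays and leaving out arrays.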

Additional observations from a re-analysis of the deposited data

Results flagged for a closer look

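The homozygous minus wild-type effect differed between tissues in 11 tests of the difference itself (limma adjusted p under 0.05 over 17374 features, 27 arrays), all of which involve the marrow arrays labelled homozygous. Marrow minus brain had 6 of 31 members called, beside 1987 of 17374 features. Liver minus marrow had 5 of 31 called, beside 2736 of 17374, so the members' share there was near that of all features. In marrow minus brain the difference was -2.41 for Ifi27l2a, -2.17 for Irf7, -2.04 for Oasl1, -1.41 for Usp18, -1.19 for Mx2 and 1.27 for Irgm1. In liver minus marrow it was 2.32 for Ifi27l2a, 1.85 for Irf7, 1.79 for Ifi47, 1.3 for Oasl1 and -1.28 for Irgm1. Irf7 and Oasl1 were detected on no brain array, and Mx2 on 2 of 9 brain arrays and no marrow array labelled homozygous, so their differences from brain are fitted values that rest partly on background and are no estimate of size. The Irgm1 value is that of the brighter of 2 probes that disagreed in marrow. Without labelled-homozygous replicate 2 all 11 differences kept their sign and had limma adjusted p-values of 0.0443 or less. With that replicate alone 4 of the 11 no longer passed: Irgm1 in both contrasts (0.37 and -0.38), and Ifi47 (0.95) and Oasl1 (0.85) in liver minus marrow. Over the 6 alternatives run Oasl1 in liver minus marrow missed the threshold in 4, Ifi47 there in 2, and Usp18 in marrow minus brain in 1.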

How the results depend on the processing

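The direction of the class medians was kept under every alternative for which they were computed, while the counts of called genes were not. No medians were computed with array weights, with the replicate block or in 1 fit of all 27 arrays. The cause was not tested. In liver, homozygous against wild type had 7 called genes by quantile normalisation without background correction, 1 by 75th percentile scaling, 6 with the deposited processed values, 0 without a detection filter, 6 with detection on all 9 arrays, 0 with the mean of detected probes, 9 with array weights and 0 in 1 fit of all 27 arrays. Of all features 328, 267, 282, 108, 205, 146, 385 and 106 were called, in that order. The features tested were 11745, but 29453 without the filter, 9033 with detection on all 9 arrays and 17374 in the fit of all arrays. Homozygous against heterozygous livers had 7, 1 and 6 under the first 3 of these alternatives, 1 without the filter, 10 with array weights and 0 in the fit of all 27 arrays. There 150, 109, 120, 60, 340 and 67 of all features were called, in that order. The liver medians were -0.21, -0.35, -0.23 and -0.32 for type I and -0.42, -0.42, -0.40 and -0.10 for GBP and IRG genes (no background correction, 75th percentile, deposited values, no filter); for type I they were also -0.40 with neqc over 27 arrays, -0.39 with detection on all 9 arrays and -0.35 with the mean of probes. The brain medians were -0.08, -0.10, -0.12, -0.04 and -0.07 for type I (no background correction, 75th percentile, neqc over 27 arrays, deposited values, no filter) and -0.06 and -0.01 for GBP and IRG genes (deposited values, no filter).

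In marrow, homozygous as labelled against wild type had 16 called genes by 75th percentile scaling, which moved the median of all features to -0.59 (2064 of 11507 features were then called), 0 with neqc over 27 arrays, 0 without a filter, 3 with the mean of probes, 15 with array weights (6589 of 11507), 20 in the fit of all 27 arrays (5805 of 17374), which lets the other tissues set the spread, and 4 with labelled-homozygous replicates 1 and 3 left out (389 of 11507). With the mean of probes 166 of 11507 features were called, with neqc over 27 arrays 155, and without a filter 121 of 29453. Heterozygous against wild type had 1 with array weights (1324 of 11507 features), 3 in the fit of all arrays (2286 of 17374) and 1 without those replicates (137 of 11507). Homozygous against heterozygous had 0, 0 and 0 by 75th percentile, neqc over 27 arrays and no filter, 7 with array weights (2151 of 11507), 10 in the fit of all arrays (3019 of 17374) and 2 without those replicates (418 of 11507). The marrow medians were -1.17, -0.98 and -0.57 for type I (75th percentile, neqc over 27 arrays, replicates 1 and 3 left out) and -0.20, -1.23, -0.61, -0.28 and -0.30 for GBP and IRG genes (no background correction, 75th percentile, neqc over 27 arrays, no filter, all 9 arrays). The tissue differences had 14 (marrow minus brain) and 12 (liver minus marrow) called with array weights (6037 and 5941 of 17374 features) and 11 and 9 (1830 and 2227) without replicates 1 and 3. The last alternative and the block with 2 groups were chosen after seeing the data.

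Leaving out 1 array at a time, the called counts ran 0 to 3 in liver homozygous against wild type, 0 to 5 against heterozygous, and in marrow 0 to 10 and 0 to 2. Of all features 47 to 172, 38 to 86, 16 to 3610 and 22 to 1585 were called, in that order. The medians ran -0.44 to -0.37 (type I) and -0.66 to -0.45 (GBP and IRG) in liver, -0.19 to -0.09 and -0.18 to -0.13 in brain, and -0.73 to -0.43 and -0.48 to -0.20 in marrow. Without labelled-homozygous replicate 2 the tissue differences had 13 (marrow minus brain) and 10 (liver minus marrow) called, beside 5624 and 6345 of 17374 features.

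With the replicate number as a block, 0 genes were called in homozygous against wild-type livers and 1 against heterozygous livers. In homozygous as labelled against wild-type marrow it was 0. Of all features 82, 45 and 19 were called, in that order. The block changed no other count of calls by over 1.5 times. Outside homozygous against wild type in liver and in marrow, every pair of groups had same-numbered arrays that correlated below 0. BeadChip as a random block was not run, since each group lies on 1 BeadChip. Dim probes limit brain most, where 17 members were not measured.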
